A study of Mus musculus with 30 samples.

Results

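The tolerised CD4+ T cells and tolerised CD11c+ cells of this study are compared here, as 3 arrays of each, 6 of the 30 arrays in the series. Members were chosen by sample title, and all 17097 genes that a probe set with 1 gene symbol could represent were considered, of which 10838 passed a filter on low values and were tested. All mice were DO11.10 RAG2-/- BALB/c, 8 to 10 weeks old. Their T cells carry 1 transgenic receptor, for the ovalbumin (OVA) peptide, and loss of RAG2 stops the mouse from making B cells and T cells of its own specificities, so the model holds a single T cell specificity. The tolerised mice received OVA in their drinking water, at 50 mg/ml by the sample labels and 50 mg/kg by the design text. The length of feeding was not stated. The treatments written below as primed and unimmunised serve as reference, each with 3 CD4+ and 3 CD11c+ arrays. Primed mice were injected under the skin with OVA (100 micrograms) emulsified in complete Freund's adjuvant and had cells taken 10 days later, and unimmunised mice received no antigen. Tolerised CD4+ cells came from mesenteric lymph nodes and were left after magnetic removal of other cells, whereas CD11c+ cells came from pooled spleen and lymph nodes and were pulled out with CD11c microbeads, each at over 90% purity by the labels. Cell type, organ and purification route therefore cannot be told apart in this comparison. Sex-linked transcripts, given below, also went with the fraction and cannot be told apart from cell type. Primed CD4+ cells came from axillary nodes and unimmunised CD4+ cells from pooled nodes and spleen, so organ also differs between treatments in CD4+ cells but not in CD11c+ cells.

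Oral tolerance is the state in which T cells stop responding to an antigen that was first met through the gut. Dendritic cells of the gut carry fed antigen to the mesenteric nodes, where retinoic acid made by their aldehyde dehydrogenases induces gut homing receptors on T cells and favours conversion to Foxp3+ regulatory cells. Antigen seen without inflammation induces anergy genes in T cells and inhibitory receptors, whose ligands sit on antigen-presenting cells. The question addressed is which side, T cell or CD11c+ cell, carries each of the inhibitory, homing and inflammatory transcripts.

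Values are log2 RMA values, which are comparable between arrays for 1 probe set and not between probe sets. A difference is CD4+ minus CD11c+, with its standard error (SE) from a limma fit to all 30 arrays, and a gene was called where its adjusted p over all 10838 genes was under 0.05 and its difference at least 1, which is 2-fold. The array medians of the 6 tolerised arrays lay between 4.481 and 4.544. A gene below the median was not shown to be above background, so a fold against such a level is not exact. In such bulk samples fewer cells of a type and less RNA per cell cannot be told apart.

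The marker lists matched the labels in both fractions and also showed other cells in each. The 12 T cell markers averaged 9.76 to 9.83 over the CD4+ arrays and 6.65 to 7.10 over the CD11c+ arrays, 9 of them above the array median on every array of both fractions and the other 3 in CD4+ alone. The 13 dendritic cell markers averaged 9.35 to 9.53 in CD11c+ and 6.34, 5.69 and 5.24 in CD4+ replicates 1, 2 and 3. Itgax, which encodes CD11c itself, read 10.12, 10.28 and 10.19 in CD11c+ and 6.13, 5.36 and 4.45 in CD4+. Transcripts of antigen-presenting cells were thus highest in CD4+ replicate 1 and lowest in replicate 3, the last just under the array median for Itgax. T cell transcripts in the CD11c+ fraction were highest in replicate 1, where Cd3e, a chain of the T cell receptor complex, read 8.78 against 7.68 and 8.19. The CD11c+ fraction also carried neutrophil markers (list means 8.61 to 9.85), red pulp macrophage markers (9.02 to 9.85) and erythroid markers (7.51 to 8.48), for which the CD4+ arrays gave 4.27 to 5.49, 3.94 to 5.29 and 4.11 to 4.63. Mast cell and basophil markers reached 6.20 in CD4+ replicate 1 and 6.24 in CD11c+ replicate 1. B cell markers stayed between 3.77 and 4.05 on all 6 arrays, below the array medians. CD11c+ replicate 3 alone of the tolerised arrays carried the salivary transcript Amy1, at 8.08 against 2.55 and 2.30. In the CD4+ fraction, 59.3% of the 1583 genes called higher in CD11c+ were highest on replicate 1, against 32.2% of all genes tested. Sex-linked transcripts went with the fraction: the Y-linked Eif2s3y read 8.84 to 8.96 in CD4+ and 2.40 to 2.84 in CD11c+, and Xist, expressed from the inactive X chromosome, 5.61 to 7.28 and 10.93 to 11.33. The sex of the mice is not in the labels, and a sex difference between the fractions cannot be told apart from cell type here. What part any of these transcripts had in the differences below was not tested.

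**Figure D1:**
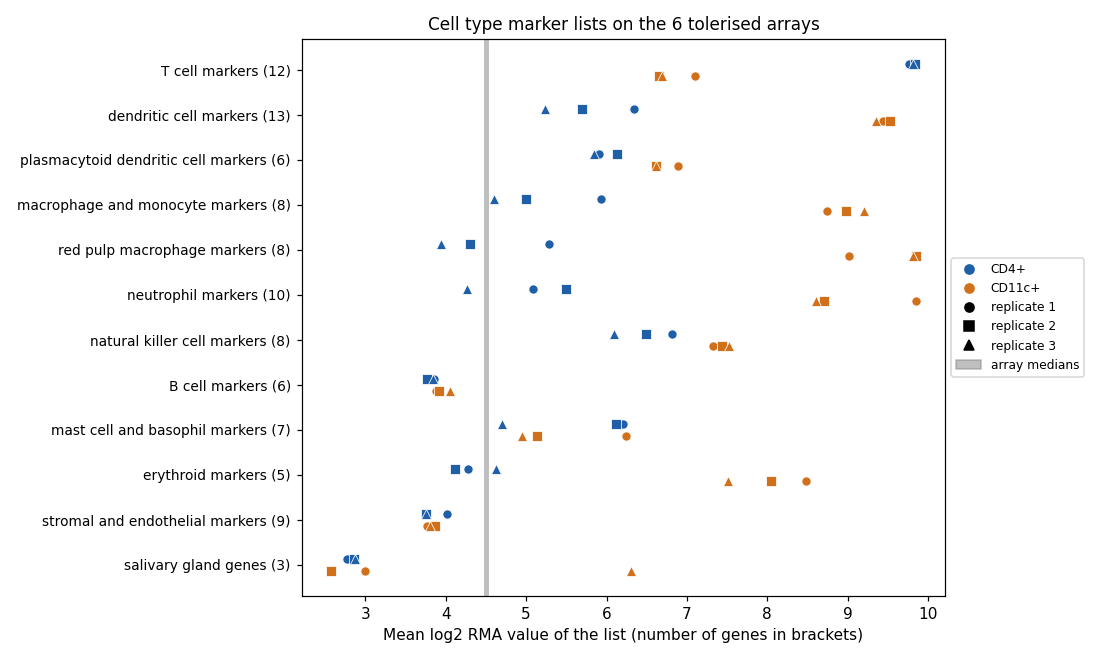
Mean log2 RMA value of each marker list (horizontal axis) on each of the 6 tolerised arrays, with CD4+ in blue, CD11c+ in orange, a symbol for each replicate and the array medians as a grey band. T cell markers lie at 9.76 to 9.83 in CD4+ and dendritic cell markers at 9.35 to 9.53 in CD11c+, while the dendritic cell list lies between 5.24 and 6.34 on the CD4+ arrays and B cell markers lie below the medians everywhere.

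CD11c+ cells held more of the transcripts that separated the fractions. Of 10838 genes, 581 were higher in CD4+ (5.36%) and 1583 higher in CD11c+ (14.6%), together 20.0%, and the median difference over all genes was 0.00. After a further quantile normalization, which moved that median to 0.17, the split was 858 and 1344. Without the 2-fold limit 60.1% of all genes passed, and the arrays of the fractions did not overlap for 60.7% of all genes, 28.7% of all genes being higher in CD4+ and 32.0% in CD11c+, so that separate arrays alone say little of a single gene. Among the 10 largest differences toward CD4+ were Ctla4, Izumo1r and Tnfsf11, described below, Lef1, a transcription factor of T cells (8.52, 8.66 and 8.72 against 4.06, 3.25 and 3.24), and Pou2af1, a coactivator of octamer-binding factors (8.24, 8.76 and 7.92 against 3.96, 3.36 and 3.71). Tmie and Trib2 were also among them, with differences of 4.60 (SE 0.36) and 4.71 (SE 0.29). The remaining 3 were the Y-linked Eif2s3y, Kdm5d and Ssty2. The 10 largest toward CD11c+ were mostly genes of other cells than dendritic cells. They included Camp, Ngp, Lcn2 and Ltf of neutrophil granules (136-, 102-, 102- and 62.6-fold), Slc40a1, Spic, Mrc1 and Slco2b1 of macrophages (110-, 58.7-, 91.6- and 84.8-fold) and Slc4a1 of red cells (58.2-fold). The sensor of double-stranded RNA Tlr3 completed them, at 10.21, 10.35 and 10.44 in CD11c+ against 4.87, 4.46 and 4.15 in CD4+, a 57.5-fold difference (-5.84, SE 0.18, adjusted p = 2e-17).

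Over the lists of inhibitory, homing, inflammatory and costimulatory genes, 277 of 331 genes with a probe set were tested, and 53 were higher in CD4+ and 119 in CD11c+. Over all genes tested, 5.36% were higher in CD4+ and 14.6% in CD11c+. Each list count of the tolerised comparison below is to be read beside these shares. By level, 180 of the 331 lay above the array median on every array of both fractions, 26 in CD4+ alone, 60 in CD11c+ alone and 65 in neither. A gene above the median in both fractions is not thereby shown in both cell types, since each fraction carried transcripts of other cells. These classes were not counted over all genes, so they are not read as particular to the lists.

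Inhibitory receptors fell mostly to the CD11c+ side, but the checkpoint receptors Ctla4 and Pdcd1 were higher in CD4+. Of 25 tested, 4 were higher in CD4+ (Ctla4, Cd5, Cd96 and Pdcd1) and 16 in CD11c+, with a list median of -2.27. The shares over all genes tested were 5.36% and 14.6%. Ctla4, the receptor that competes with CD28 for CD80 and CD86, read 10.36, 9.97 and 10.13 in CD4+ and 5.43, 4.29 and 4.23 in CD11c+. The CD11c+ array with the highest Ctla4 was replicate 1, the array with the most Cd3e, and the groups lay far apart. The difference was 5.50 (SE 0.27, adjusted p = 1.7e-14), or 45.2-fold. Pdcd1, which encodes PD-1, read 5.75, 6.52 and 5.75 against 4.01, 3.56 and 3.81, so that it was above the array median in CD4+ alone (difference 2.21, SE 0.17, adjusted p = 3.7e-11). Cd5, a damper of T cell receptor signalling, differed by 3.88 (SE 0.18) and Cd96, a nectin-binding receptor, by 2.79 (SE 0.20).

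Havcr2, which encodes TIM-3, was on the CD11c+ side, although it is best known on exhausted T cells. It read 9.18, 9.59 and 9.20 in CD11c+ and 5.34, 4.69 and 4.14 in CD4+ (difference -4.60, SE 0.22, adjusted p = 1.4e-14). The CD4+ values followed the order of the dendritic cell markers, with the lowest under the array median. The other CD11c+ members were receptors with inhibitory motifs of myeloid cells: Clec4a2 (46.0-fold), Fcgr2b, the inhibitory Fc receptor (27.4-fold), Cd300a (25.1-fold), Sirpa, the receptor of CD47 (21.6-fold), Pirb, a receptor of class I molecules (21.2-fold), and Lilrb4a (4.81-fold). Fcgr2b showed how far CD4+ arrays differed, at 5.94, 3.82 and 3.07. Lag3 and Btla were shared. Lag3, a receptor of class II molecules, read 6.57, 6.98 and 5.94 in CD4+ and 6.02, 6.19 and 6.34 in CD11c+, and the arrays overlapped (difference 0.31, SE 0.21, adjusted p = 0.20). Btla, the receptor of HVEM, read 9.97 to 10.24 and 10.60 to 10.79, a difference of -0.56 (SE 0.10, adjusted p = 3.6e-05) that was below the 2-fold limit. Tigit was not analysed here.

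The promoters of 3 of these receptors are shown: Pirb and Havcr2, called higher in CD11c+ and chosen because they hold PU.1 letters, and Ctla4, called higher in CD4+. Each is the RefSeq window (build GRCm38.p6) from 250 bases before to 50 bases after the gene's start, 5′ to 3′ on the gene's strand. Capitals mark, in Pirb (chr7:3720333-3720632, minus strand) and Havcr2 (chr11:46454681-46454980, plus strand), the letters GAGGAAGT of a PU.1 motif, at bases 131 and 243 of the window, and in Ctla4 (chr1:60908775-60909074, plus strand) the reverse complement of the TCF/LEF motif CTTTGAT, at base 277.
Pirb: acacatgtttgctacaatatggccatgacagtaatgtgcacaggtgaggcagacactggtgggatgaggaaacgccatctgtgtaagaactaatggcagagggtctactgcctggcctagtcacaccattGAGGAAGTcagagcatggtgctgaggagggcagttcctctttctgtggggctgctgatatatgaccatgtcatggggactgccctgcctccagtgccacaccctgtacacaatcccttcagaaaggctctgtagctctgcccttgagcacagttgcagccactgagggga
Havcr2: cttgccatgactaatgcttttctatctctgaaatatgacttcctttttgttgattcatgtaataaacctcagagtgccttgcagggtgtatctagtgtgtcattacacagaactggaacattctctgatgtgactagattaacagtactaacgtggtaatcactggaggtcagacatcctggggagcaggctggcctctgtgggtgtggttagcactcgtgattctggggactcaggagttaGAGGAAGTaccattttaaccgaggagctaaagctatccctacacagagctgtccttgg
Ctla4: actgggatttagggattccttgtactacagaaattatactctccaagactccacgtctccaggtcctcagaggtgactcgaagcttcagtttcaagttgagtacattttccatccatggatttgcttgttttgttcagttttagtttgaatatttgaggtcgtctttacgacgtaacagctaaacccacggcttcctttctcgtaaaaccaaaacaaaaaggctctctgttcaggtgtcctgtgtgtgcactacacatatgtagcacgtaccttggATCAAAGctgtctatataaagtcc
PU.1, encoded by Spi1, is a transcription factor of myeloid and dendritic cells. Spi1, chosen after its values were seen, read 7.82, 7.57 and 7.73 in CD11c+ and 4.66, 3.71 and 3.54 in CD4+ (difference -3.73, SE 0.17). On either strand, the PU.1 letters stood in a window of 88 of the 1262 genes higher in CD11c+ that had one (6.97%), of 18 of 455 higher in CD4+ (3.96%), of 364 of 8796 tested (4.14%) and of 997 of all 27025 genes in the table (3.69%). Among called inhibitory genes they stood in 3 of 26 with a window on the CD11c+ side (Pirb, Havcr2 and Il4i1) and in 2 of 18 on the CD4+ side (Cd5 and Dgkz), so the shares were alike. The TCF/LEF letters were in 4.28%, 3.52%, 3.24% and 4.29% of the same sets. A further 12 motifs were searched on both strands. Shares for genes higher in CD11c+, higher in CD4+, all tested and all of the table were 9.75%, 6.59%, 6.50% and 8.97% for AP-1 (TGANTCA), and 5.23%, 3.08%, 3.73% and 3.99% for the interferon response element. They were 5.63%, 5.93%, 4.71% and 6.09% for RUNX (TGTGGTT), and 3.17%, 2.42%, 9.33% and 4.31% for ETS (CCGGAAGT). The other motifs were that of GATA factors, spelled AGATAAG, C/EBP (TTGCGCAA), EGR (GCGGGGGCG), CRE (TGACGTCA) and, by name alone, NF-kB in p50-p65 and p52 forms, IRF (an instance of the interferon element) and the composite ETS-IRF element, which can overlap it. In the CD11c+ set their shares ran from 0.238%, for C/EBP, to 6.26%, for EGR. These matches describe letters in a window and are not binding sites.

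Ligands of CTLA-4 and PD-1 were on the opposite side from their receptors, but with smaller differences. Of 13 inhibitory ligands tested, 2 were higher in CD4+ and 7 in CD11c+ (median -1.12). Cd274, which encodes PD-L1, read 7.97, 7.83 and 8.19 in CD11c+ and 6.96, 6.77 and 6.91 in CD4+, above the median on all 6 arrays. Its difference of -1.12 (SE 0.16, adjusted p = 2.8e-06) became -0.89 after a further quantile normalization, which is under the 2-fold limit. Pdcd1lg2, which encodes PD-L2, read 6.0, 6.20 and 6.38 against 4.74, 5.01 and 4.36 (difference -1.49, SE 0.23). Cd86 was further apart than Cd80, and both serve CTLA-4 and CD28. Cd86 read 8.92, 9.18 and 9.13 against 5.78, 5.02 and 5.31 (13.1-fold, adjusted p = 6.9e-15), and Cd80 6.0, 6.13 and 6.12 against 4.66, 5.03 and 4.88 (2.34-fold, adjusted p = 1.1e-05). Fgl2, a secreted ligand of the inhibitory Fc receptor, was 14.3-fold and Lgals3, a galactose-binding lectin, 6.72-fold higher in CD11c+. The ligands higher in CD4+ were Cd200, at 7.99, 8.56 and 7.77 against 6.77, 6.41 and 6.97 (difference 1.39, SE 0.28), and Tnfrsf14, the HVEM ligand of BTLA, at 7.76 to 7.94 against 6.53 to 7.07 (difference 1.13, SE 0.14).

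The genes of CD39 and CD73, the enzymes that turn extracellular ATP into adenosine, were on opposite sides. Entpd1, which encodes CD39, read 8.34, 8.66 and 8.99 in CD11c+ and 6.39, 6.04 and 5.56 in CD4+ (difference -2.67, SE 0.24, adjusted p = 6.9e-10). Nt5e, which encodes CD73, read 5.88, 6.15 and 5.83 in CD4+ and 4.60, 4.02 and 3.66 in CD11c+ (difference 1.86, SE 0.20, adjusted p = 1.5e-08). The first enzyme was thus higher on the CD11c+ side and the second on the CD4+ side, with no overlap of arrays in either. Over the list, 1 of 18 tested was higher in CD4+, Nt5e itself, and 8 in CD11c+ (median -0.81), beside 5.36% and 14.6% of all genes tested. Hmox1, the haem-degrading enzyme that red pulp macrophages also express, was 32.4-fold, Il1rn, the decoy ligand of the IL-1 receptor, 10.3-fold, and the amino acid oxidase Il4i1 6.49-fold higher in CD11c+. Il10ra, the IL-10 receptor chain, was 8.13-fold higher in CD11c+. Il10 itself lay between 2.63 and 3.07 on the 6 arrays and Ido1, a tryptophan-degrading enzyme, between 2.75 and 3.47, all below the array medians, and neither was tested. Tgfb1 read 7.40 on each CD11c+ array and 6.40 to 6.96 in CD4+, a difference of -0.71 (SE 0.17, adjusted p = 0.00078) below the 2-fold limit.

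Anergy genes and regulatory T cell genes stood on the CD4+ side, with some of each list going the other way. Of 19 anergy genes tested, 10 were higher in CD4+ and 3 in CD11c+ (median 1.20), and of 12 regulatory T cell genes, which share Izumo1r with that list and Ctla4 with the inhibitory receptors, 8 and 3 (median 2.37). Izumo1r, which encodes the folate receptor FR4 of anergic and regulatory T cells, read 10.97, 11.02 and 11.03 in CD4+ and 7.06, 5.36 and 5.40 in CD11c+. The CD11c+ replicate with most T cell transcripts was again the highest, and the difference was 5.07 (SE 0.33, adjusted p = 2.5e-12). The diacylglycerol kinases Dgka and Dgkz, which dampen receptor signalling, were 7.65- and 3.21-fold higher in CD4+. Egr2, a transcription factor of anergic T cells, was detected on both sides, at 10.66, 10.74 and 10.46 against 8.99, 8.38 and 8.75 (difference 1.91, SE 0.15, adjusted p = 6.2e-11). Foxp3, whose product specifies the regulatory T cell lineage, read 8.69, 9.10 and 8.96 against 6.97, 6.44 and 6.24 (difference 2.36, SE 0.30, adjusted p = 2.3e-07). The Ikaros family members Ikzf2 and Ikzf4 differed by 4.01 (SE 0.24) and 3.03 (SE 0.20), and Il2ra, which encodes CD25, by 2.37 (SE 0.21). Higher in CD11c+ were the ubiquitin ligases Nedd4 (5.41-fold) and Nedd4l (3.99-fold) and the stress-response gene Ndrg1 (3.68-fold) of the anergy list, and Nrp1, a semaphorin receptor that dendritic cells also carry, at 7.34, 7.20 and 7.35 against 5.72, 5.74 and 4.41 in CD4+.

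**Figure D2:**
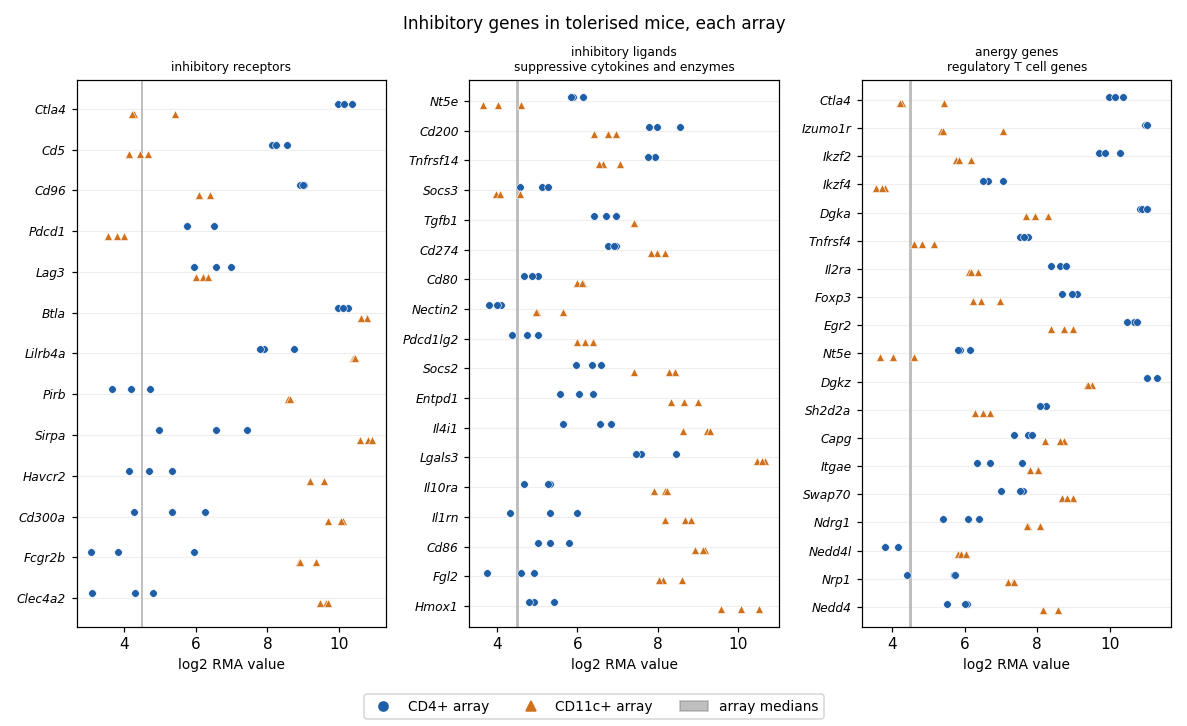
Log2 RMA value (horizontal axes) of inhibitory genes on each tolerised array, with CD4+ arrays as blue circles, CD11c+ arrays as orange triangles and the array medians as a grey line; genes are ordered by their difference within a panel. Ctla4, at 9.97 to 10.36, and Izumo1r, at 10.97 to 11.03, top the CD4+ side, Clec4a2, Hmox1 and Havcr2 lie on the CD11c+ side, and Lag3 overlaps.

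Most gut homing receptors were not called, as were most genes tested, of which 5.36% were higher in CD4+ and 14.6% in CD11c+. Of 8 tested, Ccr9 was higher in CD4+ and 2 were higher in CD11c+ (median 0.17), or 1 without CD4+ replicate 1 or after a further quantile normalization. Ccr9, the receptor of the small-bowel chemokine CCL25 that plasmacytoid dendritic cells also carry, read 8.75, 9.03 and 8.55 in CD4+ and 7.32, 7.07 and 7.0 in CD11c+. Every CD4+ array exceeded every CD11c+ array (difference 1.64, SE 0.14, adjusted p = 2.8e-10). The chains of the integrin that binds the gut addressin MAdCAM-1 lay close together. Itga4 read 9.46, 9.74 and 9.73 in CD4+ and 9.57, 9.68 and 9.64 in CD11c+, a difference of 0.01 (SE 0.12, adjusted p = 0.94), and its sign changed with the array left out. Itgb7 read 9.99 to 10.16 against 9.47 to 9.69, a difference of 0.48 (SE 0.10) below the 2-fold limit. Itgae, the chain CD103 that binds epithelial cadherin and marks migratory gut dendritic cells, read 8.02, 8.03 and 7.81 in CD11c+ and 6.71, 7.59 and 6.34 in CD4+. CD4+ replicate 2 came close to the CD11c+ arrays. The difference of -1.07 (SE 0.29, adjusted p = 0.0029) fell under the 2-fold limit without CD4+ replicate 1 (-0.99) or 3 (-0.80), with array weights (-0.89) and after a further quantile normalization (-0.86). Itgb1 was 2.43-fold higher in CD11c+.

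The retinaldehyde dehydrogenases Aldh1a1 and Aldh1a2, which make retinoic acid, were higher in CD11c+. Of 10 retinoic acid genes tested, none was higher in CD4+ and 3 were higher in CD11c+ (median -0.57). By limma, 0 were higher in CD4+ at an unadjusted p under 0.05 as well. Aldh1a2, the retinaldehyde dehydrogenase of gut dendritic cells, read 6.63, 7.38 and 6.83 in CD11c+ and 6.24, 4.91 and 3.80 in CD4+. The CD4+ arrays spread over more than 2 log2 units, in the order of their dendritic cell markers, and the difference was -1.97 (SE 0.47, adjusted p = 0.00087). Aldh1a1, an isoenzyme, read 6.58, 5.07 and 4.68 against 2.34 to 2.68 in CD4+, below the array medians on those arrays (7.63-fold). Rxra, a partner of the retinoic acid receptors, was 2.15-fold higher in CD11c+ and under the 2-fold limit with the mean of all its probe sets (-0.43).

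Genes of lymph node homing, retention and egress were divided, with 4 of 13 tested higher in CD4+ and 3 in CD11c+ (median 0.72). Cxcr5, which guides cells into B cell follicles, read 7.44, 7.85 and 7.18 in CD4+ and 3.65, 3.12 and 3.22 in CD11c+, the latter under the array medians (difference 4.16, SE 0.35, adjusted p = 2.2e-10). S1pr1, the sphingosine phosphate receptor needed for exit, read 9.03, 9.05 and 9.39 against 5.42, 5.07 and 5.61 (13.8-fold). Cd69, an activation marker that binds that receptor and holds cells in the node, was likewise higher in CD4+, at 9.30, 8.83 and 9.08 against 6.47, 5.84 and 6.06 (7.70-fold). S1pr5, which natural killer cells use for exit, was on the CD11c+ side at 8.46, 8.23 and 8.58, and CD4+ gave 6.47, 6.19 and 4.13. Natural killer cell markers followed the same order in CD4+, with list means of 6.82, 6.49 and 6.09, against 7.32 to 7.52 in CD11c+. Ccr7 and Cxcr4 were not analysed here.

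Receptors for inflamed tissue and the chemokines were on the CD11c+ side. Of 19 inflammatory homing receptors tested, 2 were higher in CD4+ and 11 in CD11c+ (median -1.24). The 2 were Itga6, a laminin-binding integrin chain (8.58 to 8.64 against 5.60 to 5.64), and Ccr4, a receptor of skin-homing and regulatory T cells (5.34, 6.11 and 6.01 against 3.72, 3.85 and 3.84). Cxcr3, the receptor of the interferon-induced chemokines, differed by less than 2-fold, at 8.32, 8.14 and 8.14 in CD4+ and 7.49, 7.75 and 7.73 in CD11c+ (difference 0.55, SE 0.17, adjusted p = 0.0086). CD11c+ cells carried Xcr1, the receptor of cross-presenting dendritic cells, at 6.45 to 6.68, whereas CD4+ arrays gave 2.60 to 2.80. They also carried receptors of granulocytes and macrophages, Fpr2 (22.1-fold), Ccr3 (17.8-fold), C5ar1 (12.7-fold) and Cxcr2 (8.22-fold), alongside the neutrophil markers given above, which include Cxcr2 itself.

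Of 21 chemokine ligands tested, 13 were higher in CD11c+ and none in CD4+ (median -1.79), where 2 were higher at an unadjusted p under 0.05 in limma. Cxcl9, a ligand of CXCR3, read 10.28, 9.47 and 9.84 in CD11c+, and 7.13, 4.62 and 4.28 in CD4+, where replicate 1 stood apart (22.9-fold). Ccl17, a ligand of CCR4, read 8.66, 9.05 and 9.82 against 6.38, 5.73 and 5.60 (9.70-fold), and Ccl22, the other ligand of CCR4, differed by -2.36 (SE 0.36). Ccl9, Ccl24 and Ccl3, which recruit myeloid cells, were 10.7-, 9.60- and 8.94-fold higher in CD11c+, and Cxcl16, the ligand of CXCR6, 7.25-fold.

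**Figure D3:**
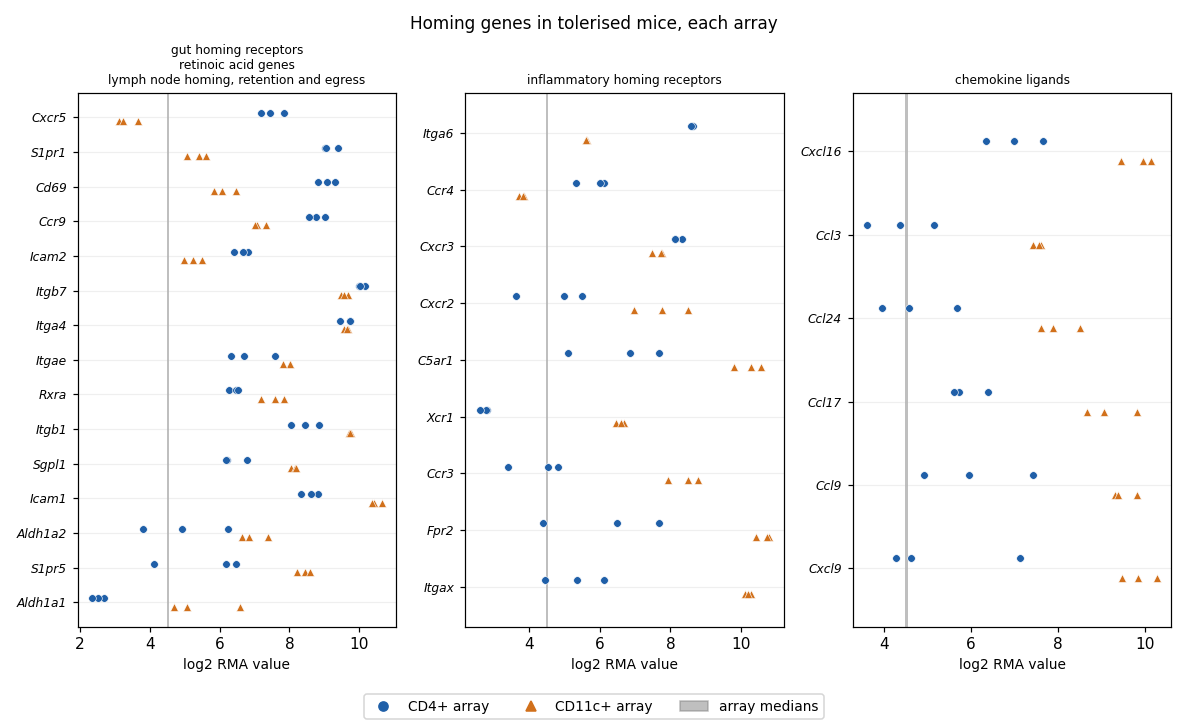
Log2 RMA value (horizontal axes) of homing receptors, retinoic acid genes and chemokines on each tolerised array, with CD4+ arrays as blue circles, CD11c+ arrays as orange triangles and the array medians as a grey line. Ccr9, Cxcr5, S1pr1 and Cd69 lie higher in CD4+, Itga4 and Itgb7 lie close together, and all 6 chemokines shown lie higher in CD11c+ with CD4+ values spread over the 3 arrays.

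Inflammatory cytokines were called on both sides. Of 32 with a probe set, 14 did not pass the filter on low values, among them Il6 (2.37 to 2.84 on the 6 arrays) and Il17a (2.61 to 2.94), and 18 were tested. Of these 5 were higher in CD11c+ and 3 in CD4+ (median 0.02), beside 14.6% and 5.36% of all genes tested. The CD4+ count was 5 without CD4+ replicate 1 and 6 after a further quantile normalization. On the CD11c+ side, Il1b, a product of the inflammasome, read 9.79, 9.0 and 9.46 against 6.36, 5.50 and 4.26 in CD4+ (difference -4.05, SE 0.42, adjusted p = 1e-08). Il18, of the same family, differed by -4.18 (SE 0.30), Tnfsf13, which encodes APRIL, by -3.55 (SE 0.30), and Il15 by -2.22 (SE 0.23). Il12b, the shared chain of IL-12 and IL-23, read 5.38, 5.20 and 5.34 against 3.77, 4.19 and 3.87 (difference -1.36, SE 0.17). On the CD4+ side, Tnfsf11, which encodes RANKL, read 8.75, 9.29 and 9.01 against 5.00, 3.62 and 3.60 (difference 4.94, SE 0.30, adjusted p = 7.3e-13). Lta, lymphotoxin alpha, differed by 2.81 (SE 0.18) and Lif, of the IL-6 family, by 1.82 (SE 0.21), both above the median in CD4+ alone. Tnf and Ifng did not separate the fractions. Tnf read 4.91, 4.86 and 4.91 in CD4+ and 5.18, 4.50 and 4.79 in CD11c+ (difference 0.07, SE 0.17, adjusted p = 0.73). Ifng read 6.03, 5.98 and 5.85 against 6.88, 6.07 and 6.76 (difference -0.61, SE 0.30, adjusted p = 0.079).

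Cytokine receptors were also called on both sides, more of them in CD11c+. Of 28 tested, 5 were higher in CD4+ and 14 in CD11c+ (median -0.89). Il27ra, at 9.64, 9.85 and 9.69 against 7.26, 6.54 and 6.65, Il6st, the shared chain gp130, at 10.50 to 10.67 against 8.97 to 9.02, and Il21r, at 7.52 to 7.80 against 6.05 to 6.44, were higher in CD4+, as was Il2ra. Il1r1, the fifth, differed by 1.01 (SE 0.22) and fell below the 2-fold limit under 4 of the alternatives. CD11c+ cells carried the growth factor receptors of myeloid cells, Csf1r (16.5-fold), Csf3r (8.03-fold), Csf2rb2 (7.75-fold) and Csf2rb (6.15-fold), and Il13ra1 (11.8-fold). Il18r1 read 8.21, 8.68 and 8.40 in CD4+ and 8.32, 8.77 and 8.82 in CD11c+, a difference of -0.21 (SE 0.21, adjusted p = 0.40).

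Innate sensors and alarmins had no member called higher in CD4+. Of 30 sensors and inflammasome genes tested, 19 were higher in CD11c+ (median -1.64), and of 16 alarmins, acute phase and lipid mediator genes, 11 (median -2.72). At an unadjusted p under 0.05 in limma, 0 sensors and 1 alarmin gene were higher in CD4+. Besides Tlr3, these were the lectins Clec4n (47.4-fold) and Clec7a (11.3-fold), the Toll-like receptor partners Ly86 (33.4-fold), Cd180 (20.9-fold), Ly96 (10.3-fold) and Cd14 (9.91-fold). Ly96 was among the least spread in CD4+, at 4.14, 4.15 and 3.74 against 7.28, 7.26 and 7.61. The alarmin pair S100a8 and S100a9 was above the array median on both sides. S100a9 read 12.45, 12.18 and 12.05 in CD11c+ and 9.05, 9.20 and 6.87 in CD4+, and S100a8 11.91, 11.56 and 11.44 and 7.71, 8.11 and 5.43. CD4+ replicate 3 was the lowest for both, as it was for the neutrophil list (5.09, 5.49 and 4.27), which includes both genes and so is not independent of them. Lcn2, another neutrophil product, was close to background on all CD4+ arrays (2.91 to 3.25) and read 10.63, 9.54 and 8.99 in CD11c+. Alox5ap, needed for leukotriene synthesis, was 27.9-fold higher in CD11c+.

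T helper factors were mostly not called. Those called were higher in CD4+, as were 5.36% of all genes tested, with 14.6% higher in CD11c+. Of 18 tested, 5 were higher in CD4+ and none in CD11c+ (median 0.31), where 4 were higher at an unadjusted p under 0.05 in limma. The called count toward CD11c+ was 2 without CD4+ replicate 1 and 1 without CD11c+ replicate 1. Hic1, a repressor that retinoic acid induces in T cells of the gut, read 7.76, 7.93 and 7.77 in CD4+ and 5.12, 4.47 and 5.57 in CD11c+ (difference 2.77, SE 0.23, adjusted p = 3.2e-10). Gata3, Stat4, Rora and Batf differed by 2.04 (SE 0.14), 1.47 (SE 0.14), 1.33 (SE 0.17) and 1.30 (SE 0.13).

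**Figure D4:**
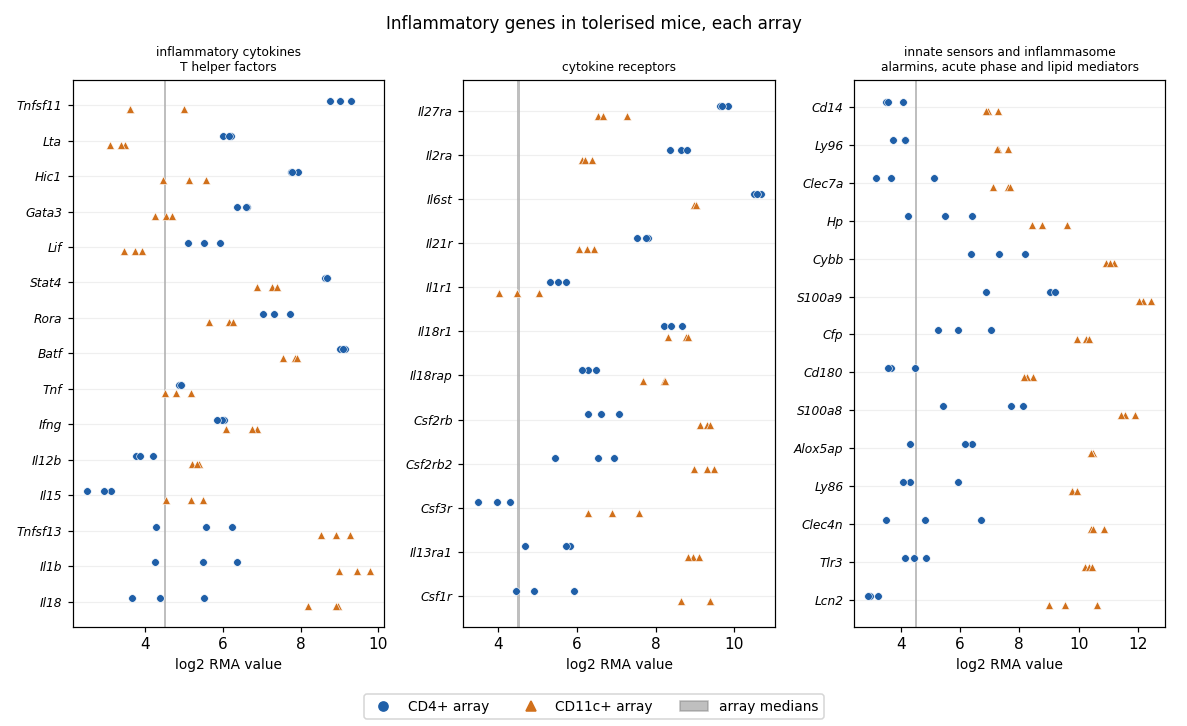
Log2 RMA value (horizontal axes) of cytokines, T helper factors, cytokine receptors, sensors and alarmins on each tolerised array, with CD4+ arrays as blue circles, CD11c+ arrays as orange triangles and the array medians as a grey line. Tnfsf11, Lta and Hic1 lie higher in CD4+, Il1b, Il18 and every sensor shown higher in CD11c+, and Tnf overlaps near the medians.

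Costimulatory receptors and ligands were divided between the fractions, receptors in CD4+ and most ligands in CD11c+. All 12 receptors tested were higher in CD4+ (median 2.80), and 0 were higher in CD11c+ at an unadjusted p under 0.05 in limma. Cd28 read 10.20, 10.29 and 10.13 against 7.01, 6.45 and 6.62 (difference 3.51, SE 0.12, adjusted p = 9.8e-17), and Icos 10.77 to 10.87 against 7.75 to 8.01. Of 6 ligands tested, Cd80, Cd86, Icosl (7.16-fold) and Cd40 (6.83-fold) were higher in CD11c+. Tnfsf8 and Tnfsf4, ligands of CD30 and OX40, were higher in CD4+. Tnfsf4 read 6.90, 7.74 and 5.93 against 4.65, 4.32 and 4.76, and Tnfsf8 7.36 to 7.75 against 4.07 to 4.18.

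Of 44 receptor and ligand pairs listed, both partners were tested in 32 and both called in 15. In 9 of these the receptor was higher in CD4+ and the ligand in CD11c+: Ctla4 with Cd80 and with Cd86, Pdcd1 with Cd274 and with Pdcd1lg2, Cd28 with Cd86, Icos with Icosl, Ccr4 with Ccl17 and with Ccl22, and Il1r1 with Il1b. In 3 the receptor was higher in CD11c+ and the ligand in CD4+: Cd200r1 with Cd200, Cd40 with Cd40lg, and Tnfrsf11a with Tnfsf11. Tnfrsf11a, which encodes RANK, read 4.65, 4.92 and 4.45 in CD11c+, near the array medians, and 3.96, 3.76 and 3.28 in CD4+. Both partners were higher in CD4+ for Tnfrsf4 with Tnfsf4, and in CD11c+ for Xcr1 with Xcl1 and Il15ra with Il15. Xcl1 is a product of lymphocytes, natural killer cells included, and read 8.40, 8.07 and 8.41 in CD11c+ and 5.54, 5.77 and 5.21 in CD4+. Some genes enter more than 1 pair, so pairs are not independent.

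Whether a compartment difference was particular to tolerised mice was tested against the same difference in primed mice, as an interaction. Of 10838 genes, 302 were shifted toward CD4+ in tolerised mice (2.79%) and 184 toward CD11c+ (1.70%), together 4.48% (11.2% without the 2-fold limit), with a median shift of -0.05. Without CD4+ replicate 1 these counts were 229 and 180. Of the 277 list genes 50 were shifted toward CD4+ and 13 toward CD11c+. CD4+ arrays of primed mice had fewer transcripts of other cells than those of tolerised mice: their list means were 4.80 to 4.96 for dendritic cell, 3.57 to 3.91 for neutrophil, 5.31 to 5.48 for natural killer cell and 3.47 to 3.62 for mast cell and basophil markers, against 5.24 to 6.34, 4.27 to 5.49, 6.09 to 6.82 and 4.70 to 6.20. Shifts toward CD4+ in S100a9 (3.68, SE 0.61), S100a8 (3.56, SE 0.61), Lilrb4a (3.01, SE 0.31) and Cybb, an oxidase subunit of phagocytes (2.87, SE 0.42), go with those lists, and the part of the lists in these shifts was not tested. S100a8 and S100a9 are themselves in the neutrophil list, so its means are not independent of them. Eif2s3y was high in both fractions of primed mice (8.49 to 8.82 and 8.53 to 8.64) and in neither fraction of unimmunised mice (2.46 to 2.70 and 2.46 to 2.69). The fractions thus differed in Eif2s3y in tolerised but not in primed or unimmunised mice. In both interactions a sex difference between the tolerised fractions cannot be told apart from tolerance.

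Among homing and T helper genes the larger shifts toward CD4+ were in Hic1, Ccr9, Cxcr5 and Itga4. Hic1 averaged 7.82 ± 0.09 (SD, n = 3) in tolerised and 3.84 ± 0.07 in primed CD4+ cells, and 5.05 ± 0.55 and 4.91 ± 0.17 in CD11c+ cells, so that a difference of 2.77 toward CD4+ stood against -1.07 in primed mice. The shift was 3.84 (SE 0.33, adjusted p = 8e-08). Ccr9 moved from the CD11c+ side in primed mice (6.44 ± 0.27 in CD4+ and 7.91 ± 0.13 in CD11c+) to the CD4+ side (8.77 ± 0.24 and 7.13 ± 0.17), a shift of 3.11 (SE 0.20, adjusted p = 5.4e-10). Plasmacytoid dendritic cell markers moved the same way, with list means of 7.13 to 7.34 in primed against 6.61 to 6.89 in tolerised CD11c+ arrays, and 5.28 to 5.46 in primed against 5.84 to 6.13 in tolerised CD4+ arrays, and with 2 of 6 called toward CD4+ and a median shift of 0.85. That list holds Ccr9 itself, which is among the members called, so the list and the gene are not independent. The part of the other members in the shift of Ccr9 was not tested. Itga4, equal between the fractions in tolerised mice, was lower in CD4+ of primed mice (7.77 ± 0.10 against 9.72 ± 0.11), and the shift was 1.96 (SE 0.16, adjusted p = 8e-08). Itgb7 moved the other way by -0.66 (SE 0.14, adjusted p = 0.0024), below the 2-fold limit, and Aldh1a2 by 1.68 (SE 0.66), which did not pass (adjusted p = 0.11). Organ differed here as well, mesenteric against axillary nodes, as did the split of Eif2s3y between fractions. Neither can be told apart from tolerance.

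Part of the inhibitory and anergy genes shifted toward CD4+: 7 of 25 inhibitory receptors (1 toward CD11c+), 1 of 13 inhibitory ligands (0 toward CD11c+), 3 of 18 suppressive genes (1) and 6 of 19 anergy genes (1). Over all genes the shares were 2.79% toward CD4+ and 1.70% toward CD11c+. Without CD4+ replicate 1 the counts toward CD4+ were 5, 1, 2 and 6. The median shift of the inhibitory receptors then fell from 0.72 to 0.32, and that of the ligands from 0.09 to -0.09. Of 12 regulatory T cell genes, 1 shifted toward CD4+ and 2 toward CD11c+ (median shift 0.14). Those counts were 3 and 2 without CD11c+ replicate 1 or after a further quantile normalization. Lag3 averaged 6.50 ± 0.52 in tolerised and 3.99 ± 0.38 in primed CD4+ cells with CD11c+ at 6.19 ± 0.16 and 6.44 ± 0.15, so it was shared in tolerised mice and on the CD11c+ side in primed mice (shift 2.75, SE 0.29, adjusted p = 1.3e-06). Egr2 had a difference of 1.91 in tolerised and 0.27 in primed mice (shift 1.64, SE 0.21, adjusted p = 1.6e-05). The orphan nuclear receptors Nr4a3 and Nr4a1, induced by receptor signalling and chosen after their values were seen, shifted by 2.27 (SE 0.27) and 1.92 (SE 0.25). Nt5e shifted by 1.50 (SE 0.28, adjusted p = 0.00094) and Cxcr5 by 2.19 (SE 0.49, adjusted p = 0.0042). Entpd1 shifted by 1.13 (SE 0.33, adjusted p = 0.028), a call lost in 10 of the alternatives, among them leaving out CD4+ replicate 1 (adjusted p = 0.091). The shifts of Ctla4 (0.72, SE 0.38, adjusted p = 0.26), Foxp3 (-0.21, SE 0.42, adjusted p = 0.81), Tnfsf11 (-0.01, SE 0.42, adjusted p = 0.99), Havcr2 (-0.56, SE 0.31, adjusted p = 0.28), Cd274 (-0.17, SE 0.23) and Cd86 (0.30, SE 0.24) did not pass. Pdcd1 shifted by 0.76 (SE 0.24, adjusted p = 0.037), below the 2-fold limit.

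Shifts toward CD11c+ of at least 2-fold were fewer, whereas without the 2-fold limit 680 genes shifted toward CD11c+ and 535 toward CD4+. The 6 list genes with the largest such shifts each had a lower mean in tolerised than in primed CD4+ cells. A shift also takes in the change in CD11c+ cells, whose means are not given here. The CD4+ means below therefore need not account for the whole shift. Cd40lg, the ligand by which helper T cells license dendritic cells, averaged 6.63 ± 0.31 in tolerised and 8.50 ± 0.13 in primed CD4+ cells (shift -2.38, SE 0.37, adjusted p = 0.00015). Ccr4 averaged 5.82 ± 0.42 and 7.83 ± 0.16 (shift -1.98, SE 0.27, adjusted p = 2.7e-05). S1pr1 averaged 9.16 and 10.03 (shift -1.39, SE 0.20), and Il18r1 8.43 and 9.29 (shift -1.45, SE 0.29). Capg, an actin-capping protein, averaged 7.66 and 8.56 (shift -1.67, SE 0.27), and Socs3, an inhibitor of cytokine signalling, 4.98 and 5.94 (shift -1.34, SE 0.33).

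**Figure D5:**
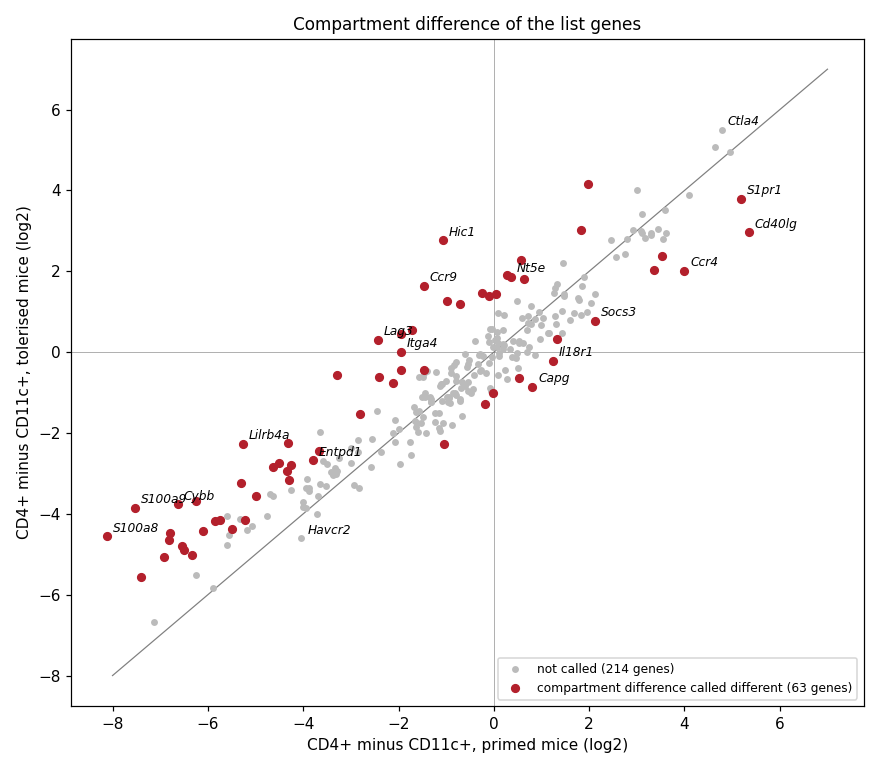
Difference CD4+ minus CD11c+ on the log2 scale in primed mice (horizontal axis) and tolerised mice (vertical axis) for the 277 list genes tested, with the line of equal difference; the 63 genes whose difference was called unequal are red and the other 214 grey. Hic1, Ccr9, Lag3 and Itga4 lie above the line, Cd40lg, Ccr4 and S1pr1 below it, and Ctla4 and Havcr2 are grey and near it.

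Against unimmunised mice, 457 genes were shifted toward CD4+ in tolerised mice (4.22%) and 1477 toward CD11c+ (13.6%), together 17.8% (49.0% without the 2-fold limit), with a median shift of -0.12 over all genes; after a further quantile normalization the counts were 798 and 1152 and the median 0.10. The tolerised arrays enter both this test and the one against primed mice. Of the 277 list genes 45 were shifted toward CD4+ and 88 toward CD11c+, and of 25 inhibitory receptors 5 and 14 (median shift -1.47). Regulatory T cell genes went the other way, with 7 of 12 toward CD4+ and 1 toward CD11c+ (median shift 1.70). CD4+ arrays of unimmunised mice carried neutrophil (9.41 to 9.72), erythroid (8.74 to 9.18) and red pulp macrophage markers (8.48 to 8.77) far above those of tolerised mice. Shifts toward CD11c+ of neutrophil genes, Lcn2 (-10.60, SE 0.54), S100a8 (-6.86, SE 0.61) and Cxcr2 (-4.62, SE 0.52), go with these lists. S100a8 and Cxcr2 are themselves in the neutrophil list, so its means are not independent of them. T cell markers themselves were lower in CD4+ arrays of unimmunised than of tolerised mice (8.60 to 8.71 against 9.76 to 9.83), with 2 of 12 shifted toward CD4+ and a median shift of 0.09. Their part in the following shifts toward CD4+ was not tested. Ctla4 averaged 3.55 ± 0.05 in CD4+ and 3.66 ± 0.06 in CD11c+ of unimmunised mice, below the array medians, and its shift was 5.61 (SE 0.38, adjusted p = 5.8e-11). Tnfsf11 shifted by 4.50 (SE 0.42), Cxcr5 by 4.03 (SE 0.49), Ikzf2 by 3.25 (SE 0.34), Icos by 3.03 (SE 0.22) and Pdcd1 by 2.36 (SE 0.24). Foxp3, at 7.02 ± 0.13 in CD4+ and 6.73 ± 0.17 in CD11c+ of unimmunised mice, shifted by 2.07 (SE 0.42, adjusted p = 0.00026). Ccr9 shifted by 1.70 (SE 0.20), and Itga4 had a shift of -0.14 (SE 0.16, adjusted p = 0.50). Havcr2 shifted toward CD11c+ (-1.47, SE 0.31, adjusted p = 0.00044), with CD11c+ cells at 9.32 ± 0.23 in tolerised and 8.06 ± 0.32 in unimmunised mice and CD4+ cells at 4.73 ± 0.60 and 4.94 ± 0.15. Dendritic cell markers in CD11c+ moved the same way, at 9.35 to 9.53 and 8.59 to 8.72, with 9 of 13 shifted toward CD11c+, and their part was not tested.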

How the data were processed

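Total RNA of magnetically separated cells was measured on Affymetrix arrays after biotin labelling, per the labels. The deposited log2 values, 1 per probe set and array, were made by the authors with RMA, per the submitters' processing notes, with no version stated. RMA equalises array distributions, so differences are relative to the whole array. Values ran from 1.667 to 13.242. Array number limits the precision. Nothing in the labels ties replicates to separate mice; if they are not, p-values measure technical spread between samples alone.

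Of 45118 probe sets, 28898 had 1 symbol in the platform annotation, 551 several and 15669 none; 28689 of these matched RefSeq by Entrez ID. For each of 17097 genes the probe set of highest average over 30 arrays was used, and the 10838 above the array median on at least 3 arrays were tested. Of 425 genes tabulated as members, markers or leading genes, 2 (Klk1 and Prf1) had a probe set differing by at least 0.5 in the opposite direction. limma 3.58.1 in R 4.3.3 (lmFit, eBayes; 10 group means, 20 residual degrees of freedom; two-sided; Benjamini-Hochberg adjustment) gave all tests. Tested on simulated data of the tolerised comparison, it recovered 98 to 100% of genes changed by 1.5 to 3 on the log2 scale, with 0% of 198 calls false. The simulation changed 200 genes and drew noise independently for each gene and array. It therefore does not measure the share of false calls in the real comparison.

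Members, lists and tests were chosen with earlier results of these data known. Named genes were the 10 largest non-overlapping calls in each direction, up to 6 called members of each list in each direction, 30 fixed genes of which Il10, Ido1, Il6 and Il17a did not pass the filter, the 6 largest list-gene shifts in each direction of each interaction, and both partners of listed pairs; others are said to be chosen later. Promoter windows were searched with Python 3.11.15 and figures drawn with matplotlib 3.10.9. Alternatives were a fit on the compared groups only, no filter, a filter on the compared arrays, a second quantile normalization, weighted arrays, replicate number as block, averaged probe sets, no minimum difference, and leaving out each array. Counts per list without CD4+ or CD11c+ replicate 1 and after quantile normalization were added after seeing the data.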

Additional observations from a re-analysis of the deposited data

Results flagged for a closer look

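Compartment differences that themselves differed between treatments, by the interaction test, are given here as shifts on the log2 scale, positive toward CD4+ in tolerised mice. Against primed mice, shifts toward CD4+ were seen in Hic1 (3.84), S100a9 (3.68), S100a8 (3.56), Ccr9 (3.11), Lilrb4a (3.01), Cybb (2.87), Lag3 (2.75), Itga4 (1.96), Nt5e (1.50) and Entpd1 (1.13), and shifts toward CD11c+ in Cd40lg (-2.38), Ccr4 (-1.98), Capg (-1.67), Il18r1 (-1.45), S1pr1 (-1.39) and Socs3 (-1.34). Against unimmunised mice, shifts toward CD4+ were seen in Ctla4 (5.61), Tnfsf11 (4.50), Cxcr5 (4.03), Ikzf2 (3.25), Icos (3.03), Izumo1r (2.95), Pdcd1 (2.36), Foxp3 (2.07), Lag3 (1.84), Nt5e (1.76), Ccr9 (1.70) and Cxcr3 (1.44), and shifts toward CD11c+ in Lcn2 (-10.60), S100a8 (-6.86), Hp (-6.00), S100a9 (-5.50), Aldh1a1 (-4.66), Cxcr2 (-4.62), Il1b (-3.69), Ifng (-2.23), Havcr2 (-1.47) and Cd86 (-1.26). Both tests share the tolerised arrays. S100a8 and S100a9 were shifted in opposite directions against the 2 references, as their level in CD4+ cells averaged 7.08 and 8.37 in tolerised, 3.56 and 4.65 in primed and 11.60 and 12.06 in unimmunised mice.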

How the results depend on the processing

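The tolerised comparison gave 2123 to 2241 calls when 1 of its 6 arrays was left out (552 to 633 toward CD4+ and 1522 to 1628 toward CD11c+), the comparison with primed mice 409 to 595 (229 to 399 and 169 to 245), and that with unimmunised mice 1878 to 2023 (433 to 485 and 1394 to 1547). Without the 2-fold limit the counts at an adjusted p under 0.05 were 6517 (3057 toward CD4+, 3460 toward CD11c+) in tolerised mice, 5315 (1760 and 3555) against unimmunised and 1215 (535 and 680) against primed mice. Quantile normalization again gave 798 shifts toward CD4+ against unimmunised mice. With levels required to be at least 1 above the array median, 99 list genes were in neither fraction. Replicate numbers are shared between fractions, but same-numbered arrays of tolerised mice did not deviate together (correlations -0.068, -0.172 and -0.138), and the replicate block gave 2166 calls in the tolerised comparison, 1927 against unimmunised and 443 against primed mice. Of 213 results for named genes, 202 kept direction and side of the threshold under every alternative tried; over the 2993 alternative values, 28 were no longer called and 5 changed sign. The sign changes were in Itga4 (-0.09 with the mean of all probe sets; -0.03 to 0.10 over arrays left out) and Tnf (-0.09 to 0.25 over arrays left out), both near 0 and not called; the cause was not tested. Signal near background limits genes below the array medians.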
